A study of Mus musculus with 17 samples.

Results

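The genes described here are the 8 mouse genes whose products make up the AP-1 transcription factor: Jun, Junb and Jund of the JUN family, Fos, Fosb, Fosl1 and Fosl2 of the FOS family, and Atf3. They were chosen by gene symbol, and all 8 were found among the 25198 genes of the count table. Their mRNA was measured by RNA-seq in CD1 mouse ovarian follicles, from animals aged 16 days, that had been grown for 8 days in eIVFG (encapsulated in vitro follicle growth) to the antral stage. In the 6 Tyrphostin libraries, pools of 3 follicles had received, over 4 h, hCG (chorionic gonadotropin, which stands in for the ovulatory LH surge) together with 10 µM Tyrphostin-AG1478, an inhibitor of the EGF receptor kinase, dissolved in DMSO. The 11 Control libraries carry the treatment label Control. One treatment text is given for all samples, and it leaves unsaid whether hCG and DMSO were given to Control follicles. Batch 1 held Control 1 to 6 and Tyrphostin 1 to 3, and batch 2 held Control 7 to 11 and Tyrphostin 4 to 6. The names of the Control libraries place them in 5 sets. The labels do not say that the libraries come from separate animals or cultures, and the p-values then measure only the spread between libraries.

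AP-1 is a dimer of basic leucine zipper proteins that binds DNA at a short palindromic site. JUN proteins pair with each other, with FOS proteins or with ATF proteins, whereas FOS proteins need a partner from another family. Many of the genes are immediate early genes: growth factor, ERK and JNK signalling raise their transcription within minutes and without new protein synthesis. In granulosa cells, the somatic cells that line the follicle, gonadotropins are known to induce several of them around ovulation, when LH also releases EGF-like ligands that act on the EGF receptor.

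The promoters of Jun, Junb and Fos are shown because Jun and Junb changed in opposite directions in the results that follow, and Fos, the usual partner of both, is the reference case of an immediate early gene. The sequences are from RefSeq (GRCm38.p6), start 250 bases before the gene start and end 6 bases after it, and are written 5′ to 3′ along the gene's own strand. They lie at chr4:95052217-95052472 (minus strand) for Jun, chr8:84978743-84978998 (minus strand) for Junb and chr12:85473640-85473895 (plus strand) for Fos. Capitals mark TGACATCA in Jun and TATAAA in Junb and Fos.
Jun promoter: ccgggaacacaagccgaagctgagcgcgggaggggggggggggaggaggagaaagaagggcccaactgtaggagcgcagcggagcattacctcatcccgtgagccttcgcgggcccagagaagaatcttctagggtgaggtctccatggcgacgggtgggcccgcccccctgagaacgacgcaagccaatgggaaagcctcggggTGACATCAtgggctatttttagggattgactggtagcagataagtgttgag
Junb promoter: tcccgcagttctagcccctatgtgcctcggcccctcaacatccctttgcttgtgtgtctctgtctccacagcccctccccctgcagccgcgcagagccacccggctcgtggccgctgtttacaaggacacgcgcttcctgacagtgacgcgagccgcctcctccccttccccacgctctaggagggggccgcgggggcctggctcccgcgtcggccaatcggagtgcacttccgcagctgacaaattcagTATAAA
Fos promoter: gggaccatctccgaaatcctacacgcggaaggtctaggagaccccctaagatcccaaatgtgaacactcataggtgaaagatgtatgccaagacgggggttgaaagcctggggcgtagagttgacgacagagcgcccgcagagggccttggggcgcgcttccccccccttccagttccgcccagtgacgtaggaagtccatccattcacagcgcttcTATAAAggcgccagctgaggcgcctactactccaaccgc

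Among the 8 genes, 7 had an entry in the RefSeq promoter table. Fosl1 had none. Each window of 300 bases (250 before to 50 after the start) was searched on both strands for 7 motifs. TGACATCA, a variant AP-1 and CREB type site, was in the Jun window alone, with its first base at position -45, and was in 3.62% of all 32851 promoters of the table. TATAAA was in 2 of the 7 windows, at -33 in Fos and at position 1 in Junb, and in 13.6% of all promoters. The RefSeq start of Junb (84978748) lies upstream of the GENCODE M21 start (84978718), so the match is upstream of the GENCODE start. The RefSeq and GENCODE starts lie farther apart for Jund (70697739 and 70698949), Fosl2 (32136472 and 32135801) and Atf3 (191183333 and 191218039). The windows of these genes therefore need not be the promoters of the transcripts counted. CCAAT was in the windows of Jun (-65), Junb (-36) and Atf3, and in 37.4% of all promoters. GGGCGG was in 5 of the 7 windows, those of Fos, Fosb, Fosl2, Jun and Atf3, and in 35.7% of all promoters. None of the 7 windows held TGANTCA, the usual AP-1 site, which was in 7.81% of all promoters. The cyclic AMP response element TGACGTCA was also in none of the windows, and in 1.79% of all promoters. The CArG box, the site of serum response factor, was in none and in 1.63% of all promoters. Sites outside the windows, and sites that depart from the sequences searched, were not looked for. An absence here thus does not show that a gene lacks such an element. In the Jun, Junb and Fos windows no match overlapped another.

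Library totals ranged from 1820545 to 8291024 counts. The lowest total was that of Control 6. Markers of granulosa cells were summed to check the tissue: over 10 markers the sum was 94965 to 112966 CPM in Control and 90743 to 119367 CPM in Tyrphostin libraries (CPM, counts scaled to a common library size with TMM factors), led by Inha, Gja1 and Inhba, while Foxl2 and Amh, which define granulosa cells of growing follicles, were at 0 to 4.66 CPM and 0 to 1.08 CPM. The theca and stroma sum over 10 markers was 276 to 2170 CPM in Control and 281 to 3096 CPM in Tyrphostin libraries, the endothelial sum over 7 markers 8.75 to 94.6 CPM and 9.33 to 36.8 CPM, the immune sum over 8 markers, of which Itgam was at 0 in all 17 libraries, 18.2 to 483 CPM and 21.5 to 868 CPM, and the oocyte sum over 10 markers 17 to 84.0 CPM and 19.2 to 221 CPM. These ranges overlapped between the groups, and their part in the results below was not tested. Results were also computed without Control 6, Control 7 and Tyrphostin 5 together, which left all calls of AP-1 genes in place: the log2 fold changes were then 1.16 for Jun, -1.57 for Junb and -2.43 for Fosl1.

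Levels of different genes were compared per kb of merged exon length. In Control libraries Junb was the most abundant AP-1 mRNA, at 647 ± 206 CPM per kb (mean ± SD, n = 11), followed by Jun at 73.7 ± 15.8 CPM per kb (mean ± SD, n = 11) and Fos at 16.1 ± 5.1 CPM per kb (mean ± SD, n = 11). Fosl2, Atf3 and Fosl1 followed at 9.94 ± 1.78, 9.81 ± 3.89 and 9.67 ± 5.27 CPM per kb (SD over n = 11), which did not differ beyond their spread. Jund and Fosb were the lowest, at 0.348 ± 0.420 and 0.334 ± 0.243 CPM per kb (SD over n = 11). In Tyrphostin libraries the level of Junb was 219 ± 56.3 CPM per kb (mean ± SD, n = 6) and that of Jun 165 ± 43.6 CPM per kb (mean ± SD, n = 6), so that the most abundant pair lay within their spread. Fos was at 13.1 ± 2.50, Fosl2 at 12.6 ± 3.45 and Atf3 at 8.66 ± 3.51 CPM per kb (SD over n = 6), neighbours in the order that overlapped. Fosl1 was below them at 1.72 ± 0.719 CPM per kb (mean ± SD, n = 6), and Jund and Fosb again had the lowest levels, 0.641 ± 0.777 and 0.141 ± 0.0970 CPM per kb (SD over n = 6).

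The comparison of Tyrphostin with Control libraries asks which AP-1 mRNAs differ between these groups. Since the labels leave unsaid whether Control follicles received hCG and DMSO, the parts of hCG, DMSO and the inhibitor cannot be told apart. The JUN family split: Jun, the founding member, was about 2 times higher in Tyrphostin libraries, while Junb, a family member that can oppose Jun in some cells, was about 3 times lower. In the FOS family Fosl1 (FRA1) was about 5 times lower, and Fos and Fosl2 did not pass the test. Of the 6 AP-1 genes tested, 3 passed at 0.05 after Benjamini-Hochberg adjustment over all genes tested (edgeR, quasi-likelihood F test with batch as a term), against 1018 of all 9603 genes tested (10.6%; 4.35% higher and 6.25% lower). Jund and Fosb did not pass the filter on low counts and were not tested. With library totals in place of TMM factors the median over all genes shifted from a log2 fold change of 0.00 to 0.15 and the calls from 418 higher and 600 lower to 715 higher and 396 lower. The 3 AP-1 calls and their directions did not change. In such bulk samples fewer cells of a type and less RNA per cell cannot be told apart.

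**Figure D1:**
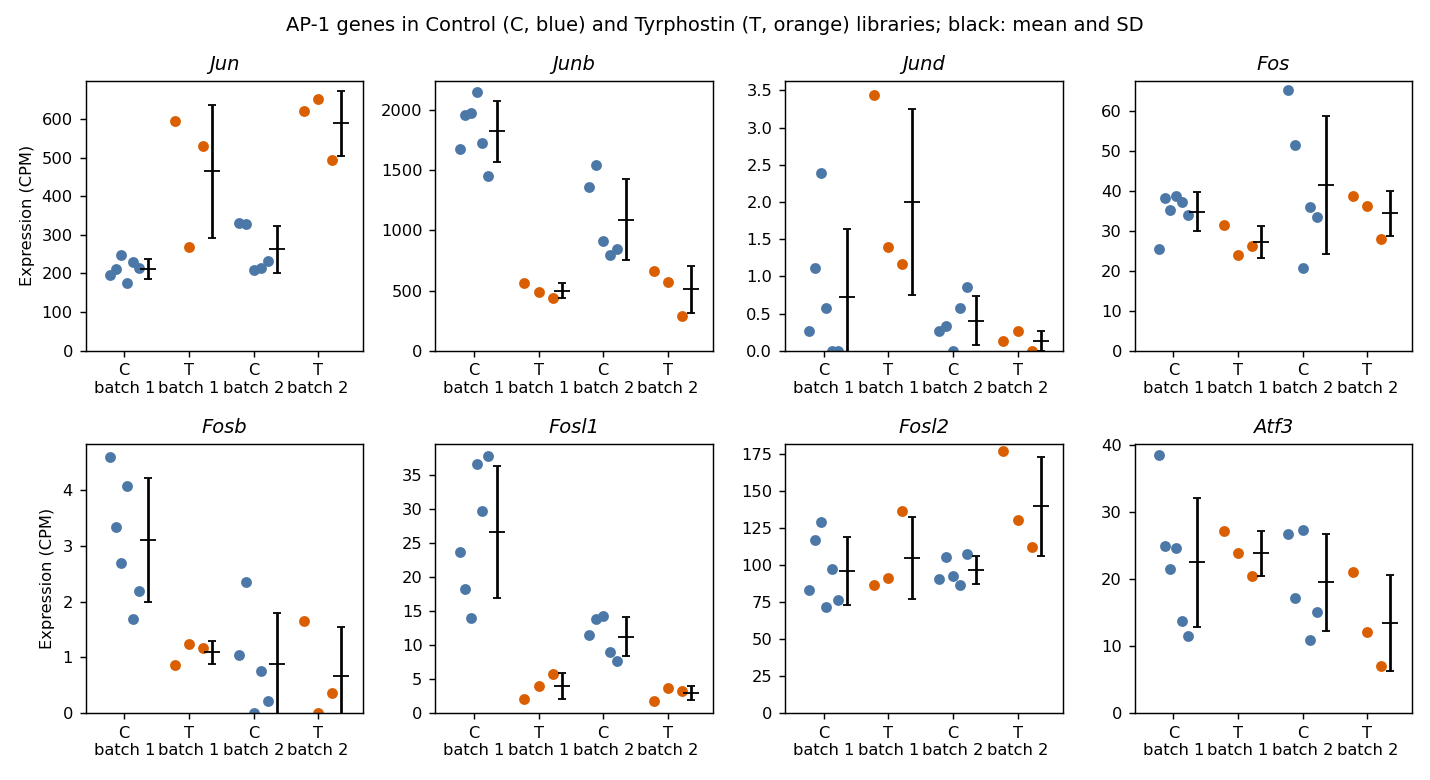
Expression of the 8 AP-1 genes in each library (vertical axes, CPM, each from 0). Points are libraries, by treatment (C, Control; T, Tyrphostin) and batch, and black marks are the mean and SD of each set. For Junb and Fosl1 the 6 Tyrphostin points all lie under the lowest Control point.

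Jun (chr4:95049034-95052222, minus strand, a gene with 1 exon) encodes c-Jun, the AP-1 subunit that JNK phosphorylates and that can drive its own promoter. Its level in the 11 Control libraries was 174 CPM at the lowest, 215 CPM at the median and 329 CPM at the highest, and in the 6 Tyrphostin libraries 269, 563 and 652 CPM. Of the 6 Tyrphostin libraries, 5 were above every Control library, and the exception was Tyrphostin 2. All 6 were above for 0.51% of all genes, which Jun was not among. Within batch 1 the Tyrphostin libraries were at 594, 269 and 531 CPM against 174 to 248 CPM in Control. Within batch 2 they were at 621, 652 and 493.3 CPM against 329, 329, 208, 215 and 231 CPM. Within each batch, then, every Tyrphostin library was above every Control library, as for 5% of all genes in batch 1 and 4.22% in batch 2. Levels were 235 ± 50.3 CPM (mean ± SD, n = 11) in Control and 527 ± 139 CPM (mean ± SD, n = 6) in Tyrphostin libraries. Jun rose by a log2 fold change of 1.15 ± 0.17 (SE; adjusted p = 7.25e-05 in edgeR). Of the exon bases of Jun, 7.28% are shared with Junos, an antisense gene on the opposite strand, which was also higher (log2 fold change 1.19 ± 0.16, SE; adjusted p = 3.61e-05 in edgeR). Smart-Seq2 does not mark the strand, so reads from the shared stretch cannot be told apart.

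Junb (chr8:84974484-84978718, minus strand) encodes JunB, a JUN family member with a weaker activation domain than c-Jun. The Control libraries had 793 CPM at the lowest, 1543 CPM at the median and 2147 CPM at the highest, and the Tyrphostin libraries 289, 527 and 662 CPM. The groups did not overlap: the highest of the 6 Tyrphostin libraries was under the lowest Control library, as it was for 96 of 9603 genes (1%). In batch 1 the Tyrphostin libraries were at 564, 491 and 440 CPM against 1453 to 2147 CPM in Control. In batch 2 they were at 662, 574 and 289 CPM against 1360, 1543, 910, 793 and 841 CPM. The Control libraries of batch 2 were thus lower than most of batch 1, and the gap to the Tyrphostin libraries was narrower there. Levels were 1489 ± 474 CPM (mean ± SD, n = 11) in Control and 503 ± 130 CPM (mean ± SD, n = 6) in Tyrphostin libraries. Junb fell by 1.48 ± 0.22 on the log2 scale (SE; adjusted p = 9.03e-05 in edgeR). Prdx2, whose exons share 7.52% of the exon bases of Junb on the opposite strand, did not pass the test (log2 fold change -0.34 ± 0.21, SE; adjusted p = 0.348 in edgeR).

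Jund (chr8:70698949-70700616, plus strand, 1 exon) encodes JunD, the JUN family member known for steady expression and for AP-1 activity in luteinising granulosa cells. It was at or under 3 counts in 11 of 17 libraries and at 0 in 4 of them. A count of 0 allows up to 3 counts, or 0.598 to 1.65 CPM by library totals in those 4 libraries, a limit that covers counting error only. The Control libraries had 0 to 8 counts. Tyrphostin 1 to 3 had 24, 9 and 6 counts, and Tyrphostin 4 to 6 had 1, 1 and 0. The highest values were in batch 1, and the groups overlapped. Gm11175, on the opposite strand, covers 52.6% of the exon bases of Jund in GENCODE M21, and no value for it was used here. How the counting treated reads in that stretch is not given in the sources used here, and the level per kb was divided by the full exon length.

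Fosl1 (chr19:5447547-5455946, plus strand) encodes FRA1, a FOS family member without the C-terminal activation domain of c-Fos and a known target of ERK signalling. Control libraries had 7.68 CPM at the lowest, 14.3 CPM at the median and 37.8 CPM at the highest, and Tyrphostin libraries 1.78, 3.57 and 5.85 CPM, from 13 to 30 counts per library. Again the groups did not overlap: the highest Tyrphostin library was under the lowest Control library, as for 1% of all genes. Batch 1 had 2.15, 4.04 and 5.85 CPM in Tyrphostin libraries against 14.0 to 37.8 CPM in Control. Batch 2 had 1.78, 3.77 and 3.36 CPM against 11.5, 13.8, 14.3, 9.01 and 7.68 CPM. Fosl1 was lowest in Tyrphostin 4 and highest in Control 6, and no library of either batch crossed between the groups. Levels were 19.7 ± 10.7 CPM (mean ± SD, n = 11) in Control and 3.49 ± 1.46 CPM (mean ± SD, n = 6) in Tyrphostin libraries. Fosl1 fell by 2.38 ± 0.29 on the log2 scale (SE; adjusted p = 8.36e-06 in edgeR), the lowest adjusted p among the 6 tested AP-1 genes. Its Tyrphostin counts alone would not have met the filter on low counts, over both batches or within either. It passed through Control libraries, where it was higher, which favours a lower Tyrphostin level in advance. In the fit of both batches without that filter, Fosl1 was still called lower. Of its 2033 exon bases, 1163 (57.2%) are shared with Ccdc85b on the opposite strand, which was also lower (log2 fold change -1.90 ± 0.35, SE; adjusted p = 0.000898 in edgeR). Without strand information, reads of Fosl1 and Ccdc85b in the shared stretch cannot be told apart.

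Fos (chr12:85473890-85477273, plus strand) encodes c-Fos, the prototype immediate early protein. Its levels were 20.8 CPM at the lowest, 36.04 CPM at the median and 65.4 CPM at the highest in Control libraries and 23.9, 29.8 and 38.8 CPM in Tyrphostin libraries. The Tyrphostin values all lay inside the Control range. Its log2 fold change of -0.32 ± 0.19 (SE; adjusted p = 0.323 in edgeR) did not pass the test. The 5 Control libraries of batch 2 held both the lowest and the 2 highest values of the series for Fos, in Control 9 and in Control 7 and 8.

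Fosl2 (chr5:32135801-32157842, plus strand) encodes FRA2, which is known as a partner of JunD in luteinising granulosa cells. Control libraries had 71.9 CPM at the lowest, 92.5 CPM at the median and 129 CPM at the highest, and Tyrphostin libraries had 86.4, 121 and 177 CPM. Of the 6 Tyrphostin libraries, 3 were above every Control library and the other values overlapped. The log2 fold change was 0.33 ± 0.16 (SE; adjusted p = 0.231 in edgeR) and did not pass the test. In batch 2 the Tyrphostin libraries, at 177, 130 and 112 CPM, were all above the Control libraries, at 90.8, 106, 92.5, 86.8 and 107 CPM; 4.22% of all genes were placed this way in batch 2. In batch 1 they overlapped, at 86.4, 91.5 and 137 CPM against 71.9 to 129 CPM.

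Fosb (chr7:19302696-19310051, minus strand) encodes FosB, an immediate early protein with a splice form that lacks the activation domain. It had 0 to 21 counts per library, at or under 3 counts in 4 libraries and at 0 in 2, and passed the filter on low counts within batch 1 but not over both batches or within batch 2. There the Control libraries were at 4.58, 3.34, 2.69, 4.06, 1.69 and 2.19 CPM and the Tyrphostin libraries at 0.861, 1.24 and 1.17 CPM, from 6, 8 and 6 counts. All 3 Tyrphostin libraries of batch 1 were below every Control library of that batch, where 6.3% of all genes were placed this way. The log2 fold change of -1.502 ± 0.51 (SE; adjusted p = 0.0889 in edgeR) did not pass the test, while DESeq2 gave an adjusted p of 0.043. Fosb passed the filter in batch 1 only through Control libraries, where it was higher, which favours a lower Tyrphostin level in advance. These batch 1 values are therefore no support for a fall. In batch 2 the values overlapped, at 1.05, 2.35, 0, 0.767 and 0.213 CPM in Control and 1.65, 0 and 0.373 CPM in Tyrphostin libraries.

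Atf3 (chr1:191170296-191218039, minus strand) encodes a stress-induced bZIP protein that pairs with JUN proteins and can repress transcription. Its Control libraries had 10.9 CPM at the lowest, 21.5 CPM at the median and 38.5 CPM at the highest, and its Tyrphostin libraries 7.09, 20.8 and 27.1 CPM. The groups overlapped, and Tyrphostin 6 alone was below every Control library. The log2 fold change was -0.19 ± 0.26 (SE; adjusted p = 0.716 in edgeR). Heat shock and stress genes, read beside it, gave summed levels of 2194 to 5017 CPM in Control and 2034 to 3541 CPM in Tyrphostin libraries over 10 genes. The sum mostly follows Hspa8, at 1503 to 4303 CPM over all libraries. Hspa1a, Hspa1b and Hspb1 reached at most 7.40, 7.28 and 0.746 CPM, so the sum is no measure of them. Of 7 tested, Hsph1, a co-chaperone, fell (log2 fold change -0.91 ± 0.20, SE; adjusted p = 0.00484 in edgeR) and none rose. Among all genes tested 6.25% fell and 4.35% rose.

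The contrast was repeated within each batch. In batch 1, 634 of 9423 genes (6.73%) passed the test (2.94% higher, 3.79% lower). Among 7 AP-1 genes tested there, Jun rose (log2 fold change 1.14 ± 0.24, SE; adjusted p = 0.00688 in edgeR), and Junb (-1.87 ± 0.25, SE; adjusted p = 0.000119 in edgeR) and Fosl1 (-2.73 ± 0.39, SE; adjusted p = 0.000273 in edgeR) fell. The Jun call in batch 1 was lost when Tyrphostin 1 was left out, with a log2 fold change of 0.93 (edgeR adjusted p = 0.0515). In batch 2, 61 of 9830 genes (0.621%; 0.427% lower) passed, and Fosl1 was the only 1 of 6 AP-1 genes among them (-1.94 ± 0.37, SE; adjusted p = 0.0386 in edgeR). This call was lost when any 1 of Control 8, Control 9, Control 10, Tyrphostin 4, Tyrphostin 5 or Tyrphostin 6 was left out, with edgeR adjusted p from 0.0216 to 0.175 over the 8 omissions, and with library totals (adjusted p = 0.0654). Jun in batch 2 had a log2 fold change of 1.17 ± 0.25 (SE; adjusted p = 0.0646 in edgeR), which passed in DESeq2 (adjusted p = 0.000611), with library totals (0.0363), without the filter (0.0162) and without Control 7 (0.0143). Junb in batch 2 had a log2 fold change of -1.10 ± 0.35 (SE; adjusted p = 0.224 in edgeR).

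**Figure D2:**
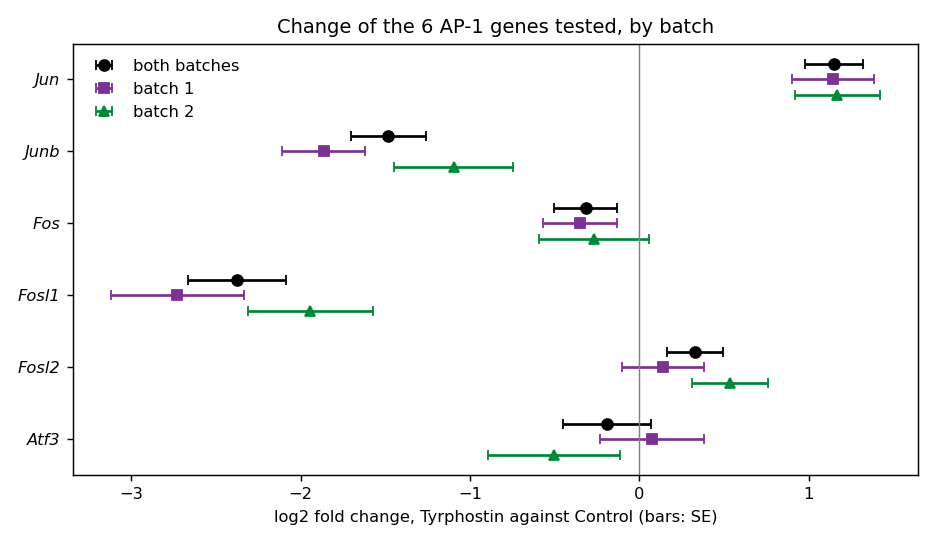
Log2 fold change of Tyrphostin against Control (horizontal axis, bars are SE) for the 6 AP-1 genes tested in both batches, from the fit over 17 libraries (circles) and within batch 1 (squares) and batch 2 (triangles). Jun is on the positive side at 1.14 and 1.17 in the batches, and Junb and Fosl1 are on the negative side in both.

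Whether the effect differed between batches was tested with an interaction term. None of the 6 AP-1 genes passed, and 0 of 9603 genes did (0%; edgeR 342 at an unadjusted p under 0.05, DESeq2 0). Junb had the lowest unadjusted p of the 6, with log2 fold changes of -1.87 in batch 1 and -1.10 in batch 2 and an interaction term of 0.77 ± 0.39 (SE; edgeR unadjusted p = 0.0621, adjusted p = 1.00). For Jun the difference between batches was 0.03 ± 0.36 (SE; adjusted p = 1.00 in edgeR).

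The Control libraries of the batches were compared with each other to see how AP-1 levels vary without the inhibitor. Here 1004 of 9128 genes (11%) differed, 502 (5.5%) in each direction, and 2 of 6 AP-1 genes did. Fosl1 was lower in batch 2, at 11.3 ± 2.90 CPM (mean ± SD, n = 5) against 26.7 ± 9.68 CPM (mean ± SD, n = 6), which is a log2 fold change of -1.23 ± 0.28 (SE; adjusted p = 0.00923 in edgeR). Junb was lower in batch 2 as well, at 1090 ± 339 CPM (mean ± SD, n = 5) against 1823 ± 251 CPM (mean ± SD, n = 6), which is a log2 fold change of -0.74 ± 0.23 (SE; adjusted p = 0.0442 in edgeR). Its call was lost with library totals (adjusted p = 0.0872), without the filter (0.0607) and in 8 of the 11 omissions of 1 library, those of Control 1, 2, 3, 4, 5, 9, 10 and 11, with adjusted p from 0.0247 to 0.119. Fos, Fosl2, Jun and Atf3 did not pass, with log2 fold changes of 0.26 ± 0.24, 0.02 ± 0.19, 0.31 ± 0.19 and -0.23 ± 0.30 (SE). These Control libraries also enter the comparison with Tyrphostin libraries.

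The make-up of each family was then expressed as shares of its summed level per kb. Junb made up 88.8% ± 4.0 (SD over n = 11) of the JUN family level in Control and 56.8% ± 8.7 (SD over n = 6) in Tyrphostin libraries, and Jun 11.1% ± 4.0 (SD over n = 11) and 43.0% ± 8.8 (SD over n = 6). The share of Jun ranged from 5.53% to 16.5% in Control and from 28.3% to 55.2% in Tyrphostin libraries, without overlap. The summed JUN family level was 721 ± 205 CPM per kb (mean ± SD, n = 11) in Control and 385 ± 84.6 CPM per kb (mean ± SD, n = 6) in Tyrphostin libraries. Junb exceeded Jun per kb in 16 of 17 libraries. The ratio of Junb to Jun was 5.04 to 17.1 in Control and 0.813 to 2.53 in Tyrphostin libraries. Tyrphostin 6 had the lowest ratio, and there Junb was below Jun. The shares and this ratio restate the changes of Jun and Junb and carry no test of their own; the ratio was chosen after its values were seen.

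In the FOS family Fosl1 made up 26.3% ± 11.9 (SD over n = 11) of the summed level in Control and 6.47% ± 2.86 (SD over n = 6) in Tyrphostin libraries. The share of Fosl2 was 28.5% ± 7.4 (SD over n = 11) and 45.3% ± 4.8 (SD over n = 6), and that of Fos 44.4% ± 9.8 (SD over n = 11) and 47.7% ± 5.8 (SD over n = 6). Fosb made up less than any of them, 0.895% ± 0.685 (SD over n = 11) and 0.522% ± 0.339 (SD over n = 6). The summed FOS family level was 36.04 ± 6.2 CPM per kb (mean ± SD, n = 11) in Control and 27.6 ± 5.2 CPM per kb (mean ± SD, n = 6) in Tyrphostin libraries. When levels were divided by the exon length that no other annotated gene shares (870 bases for Fosl1), the Fosl1 share became 43.8% ± 15.0 (SD over n = 11) in Control and 13.7% ± 5.7 (SD over n = 6) in Tyrphostin libraries, so its rank in the Control family depends on how shared bases are counted. The shares of Jun and Junb moved by under 1 percentage point.

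**Figure D3:**
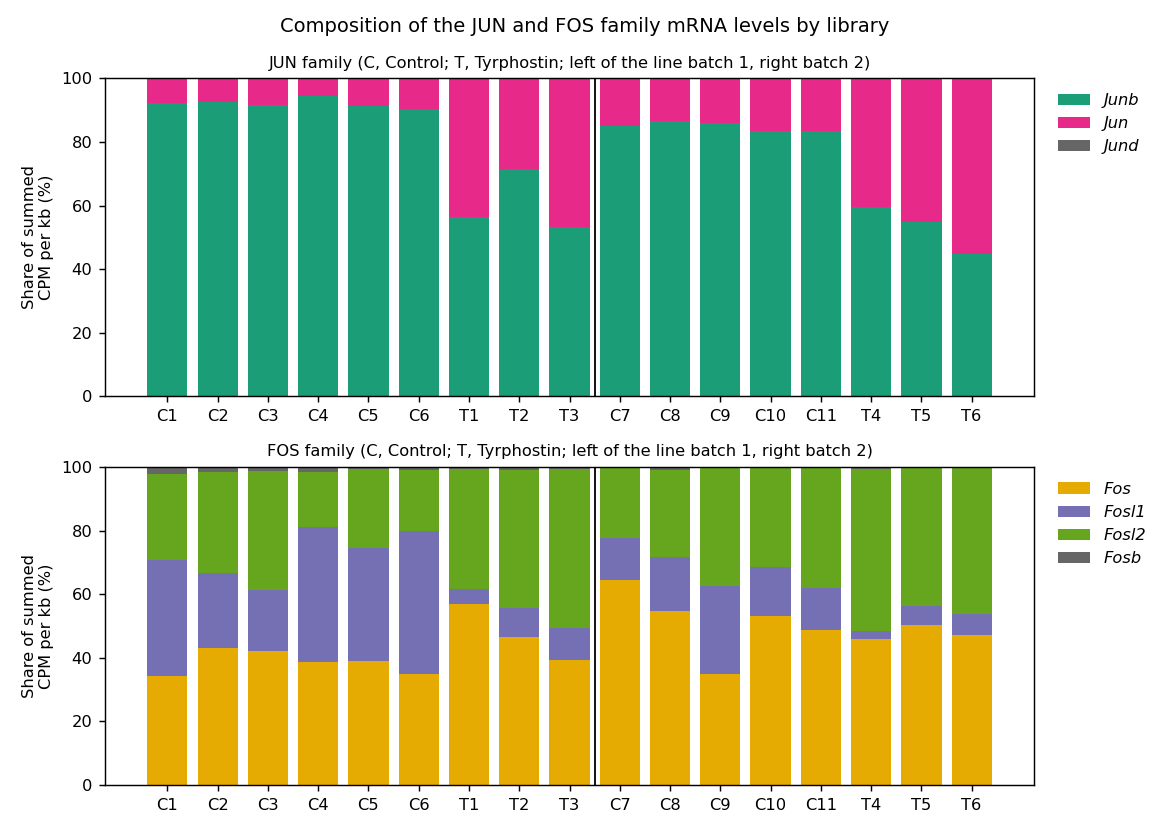
Share of each gene in the summed CPM per kb of the JUN family (upper panel) and FOS family (lower panel), in percent, for each Control (C) and Tyrphostin (T) library, with batch 1 left of the line. The Jun share is 28.3% to 55.2% in Tyrphostin libraries and 5.53% to 16.5% in Control libraries.

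Related members were compared directly through their ratio in each library, on the log2(CPM + 1) scale, with an exact two-sided permutation test within batches and Benjamini-Hochberg adjustment over the 4 pairs compared. The arrangements treat the 11 Control libraries as separate units, though their names place them in 5 sets. The ratios were not tested with sets as units, so these p-values measure only the spread between libraries. The Fosl1 to Fosl2 ratio was lower in Tyrphostin libraries by a difference of -2.36 (exact permutation p = 0.000213, the smallest the 4704 arrangements allow, adjusted p = 0.00085), with -2.58 in batch 1 and -2.14 in batch 2. This ratio, like those below, restates levels given above from the same libraries and is no separate support. Of the exon bases of Fosl1, 57.2% are shared with Ccdc85b, which was also lower (log2 fold change -1.90). The part of Ccdc85b reads in this ratio was not tested. The Junb to Jund ratio was lower by a difference of -1.79 (exact permutation adjusted p = 0.0017), -2.73 in batch 1 and -0.85 in batch 2, and the Jun to Jund ratio was higher by 0.83 (exact permutation adjusted p = 0.0303), 0.19 in batch 1 and 1.47 in batch 2. Jund was at or under 3 counts in 11 libraries, and its 24, 9 and 6 counts in Tyrphostin 1 to 3 against 0 to 8 in the Control libraries enter both ratios in batch 1. The Jun to Jund result was lost with 0.5 CPM added (exact permutation adjusted p = 0.151), when labels were permuted without regard to batch (0.0608) and without Tyrphostin 3 (0.119). The Fos to Fosb ratio did not pass (difference 0.28, exact permutation adjusted p = 0.286).

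The genes around AP-1 were examined as lists, given as counts beside those of all genes tested, of which 4.35% rose and 6.25% fell, with a median log2 fold change of 0.00. Of 13 tested bZIP proteins that can pair with AP-1 members, 1 fell, 0 rose and the median was -0.13. The one that fell was Mafk, a small MAF protein without an activation domain (log2 fold change -0.95 ± 0.22, SE; adjusted p = 0.00621 in edgeR), and 0 fell on libraries 1 to 6 of each group fitted without a replicate block. Of 13 tested factors that drive Fos and Jun transcription, such as the ternary complex factors, none passed, and the median was -0.14. The lowest p among them was that of Elk3 (log2 fold change -0.996 ± 0.37, SE; adjusted p = 0.0957 in edgeR). DESeq2 called 1 of these 13 factors lower.

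Of 16 tested kinases that activate AP-1, 2 rose and 1 fell, with a median of 0.13. Map3k1, a kinase upstream of JNK, went from 43.3 ± 18.7 CPM (mean ± SD, n = 11) to 129 ± 84 CPM (mean ± SD, n = 6), which is a log2 fold change of 1.35 ± 0.25 (SE; adjusted p = 0.00122 in edgeR). Mapk9, which encodes JNK2, rose by a log2 fold change of 0.88 ± 0.23 (SE; adjusted p = 0.0169 in edgeR). Mapk3, which encodes ERK1, fell by 0.96 ± 0.27 on the log2 scale (SE; adjusted p = 0.0248 in edgeR). The number of kinases that rose was 1 to 3 over the alternatives and omissions, and 1 without the batch term, with the replicate block and without Tyrphostin 2. The number that fell was 0 to 2, and 0 with library totals, without the batch term, with depth in the model, with Control libraries summed by set, on libraries 1 to 6 with or without the block, and without Tyrphostin 1, 3 or 6. Among 10 tested genes of AP-1 mRNA and protein turnover, 2 fell, none rose and the median was -0.24. Both encode proteins that bind AU-rich mRNAs and speed their decay: Zfp36 (log2 fold change -1.57 ± 0.31, SE; adjusted p = 0.00224 in edgeR) and Zfp36l1 (-1.12 ± 0.21, SE; adjusted p = 0.00112 in edgeR). Only 1 turnover gene fell without the batch term and with the replicate block.

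Genes known from other cells as AP-1 targets were mostly lower: of 15 tested, 8 fell, 0 rose and the median log2 fold change was -1.08. Ptgs2, the cyclooxygenase that makes prostaglandins at ovulation, was at 7362 ± 4256 CPM (mean ± SD, n = 11) in Control and 1306 ± 832 CPM (mean ± SD, n = 6) in Tyrphostin libraries, and fell by 2.40 ± 0.24 on the log2 scale (SE; adjusted p = 5.33e-07 in edgeR). Plaur, the urokinase receptor, Il6, an inflammatory cytokine, and Timp1, an inhibitor of matrix metalloproteinases, fell as well (log2 fold changes -2.26 ± 0.37, -2.79 ± 0.51 and -2.05 ± 0.38, SE; adjusted p = 0.000238, 0.00151 and 0.00151 in edgeR). The other 4 that fell were Lif, Spp1, Vim and Mt2. Dusp1, a MAP kinase phosphatase, had a log2 fold change of 0.06 ± 0.18 (SE; adjusted p = 0.889 in edgeR). The list was drawn from other cell types, and whether AP-1 acts on these genes in follicles was not tested.

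Of 14 immediate early genes outside AP-1, all tested, 8 fell and 1 rose, with a median of -0.99. Egr1, the zinc finger factor induced beside Fos, fell by 1.71 ± 0.22 on the log2 scale (SE; adjusted p = 1.37e-05 in edgeR). Its Tyrphostin libraries were all below every Control library, as for 1% of all genes. Arc, Egr3 and Ier2 fell as well (log2 fold changes -1.78 ± 0.23, -2.16 ± 0.32 and -0.89 ± 0.16, SE; adjusted p = 1.74e-05, 9.31e-05 and 0.00056 in edgeR). The gene that rose was Nr4a1, an orphan nuclear receptor, with a log2 fold change of 0.84 ± 0.22 (SE; adjusted p = 0.0159 in edgeR), and its call was lost without the batch term and on libraries 1 to 6 of each group, fitted without a replicate block. Junb and Fosl1 moved in the direction of most of this list, Jun in that of Nr4a1, and Fos, at a log2 fold change of -0.32, did not pass the test. Zfp36 is counted in this list and in the turnover list.

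**Figure D4:**
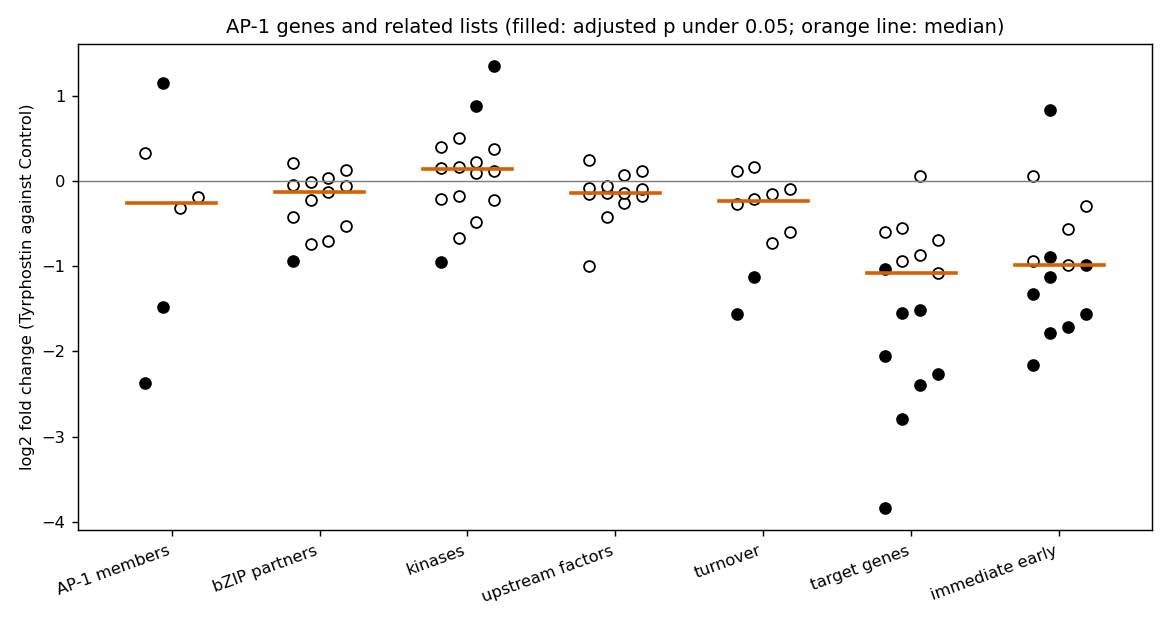
Log2 fold change of Tyrphostin against Control (vertical axis) for the tested AP-1 genes and the tested genes of 6 related lists. Filled points have an adjusted p under 0.05, and orange lines are medians, which are -1.08 for target genes, -0.99 for immediate early genes and between -0.26 and 0.13 for the other lists.

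To see which genes vary with each AP-1 gene beyond treatment and batch, the mean of each treatment-by-batch group was removed and genes were ranked by Pearson's r over the 17 libraries, among 6104 genes of at least 3 mean log2 CPM. The values describe the top of a long ranking, share the library and its depth, and carry no test. Jun was most like Trip10, a CDC42 effector (r = 0.94, Spearman's rho = 0.95, r = 0.88 without the 2 libraries farthest from the median of Jun). Junb was most like Cemip2, with r = 0.87, and next Vim, the intermediate filament vimentin, with r = 0.84. Fosl1 was most like Tubb3 (r = 0.82), then Ccdc85b (r = 0.79), its neighbour with shared bases on the opposite strand, and Clcf1, an IL6 family cytokine (r = 0.79). Atf3 was most like F3, tissue factor, with r = 0.89, and Tnfrsf12a, the TWEAK receptor, with r = 0.87. For Fos the closest was Ano6 (r = 0.89) and for Fosl2 it was Pde10a, a cyclic nucleotide phosphodiesterase (r = 0.88). None of these closest genes was itself an AP-1 gene. Among the tested AP-1 genes, r was 0.66 for Fos and Junb (Spearman's rho = 0.82), 0.63 for Fos and Jun and 0.60 for Junb and Atf3. Fosl1 had r of -0.39 to -0.11 with the others, and the remaining pairs had 0.02 to 0.49.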

How the data were processed

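Counts per gene symbol were deposited by the authors as 1 table of 25198 genes and 17 libraries, with whole-number counts that are not normalized. Per the submitters' processing notes, STAR, HTSeq and the GRCm38 build were used. Versions, annotation and strand setting are not given in the sources used here. Smart-Seq2 libraries hold no molecular identifiers, per the labels' protocols. Columns were matched to samples by the names in the labels, which also give group and batch.

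R 4.3.3 and edgeR 4.0.16 were used to test differences (TMM, filterByExpr on treatment, robust glmQLFit, quasi-likelihood F test, Benjamini-Hochberg adjustment over all genes tested, threshold 0.05), with batch in the model for all 17 libraries, within each batch, as an interaction, and between batches in Control. The SE is the size of the log2 fold change divided by the square root of F. CPM values use TMM-scaled library sizes. Exon lengths, positions and overlaps are from GENCODE M21 (GRCm38), and promoters from RefSeq (GRCm38.p6). Member ratios were tested by exact permutation in Python 3.11.15 with SciPy 1.17.1. The code was tested on simulated data.

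The AP-1 genes and the gene lists were chosen with earlier results of these data known. All 8 AP-1 genes are named, and from each list the genes past the threshold in the main comparison, at most the 4 of lowest p and otherwise the 1 of lowest p. Genes named after their values were seen are the remaining target genes that fell, Dusp1, Nr4a1 and the genes that share exon bases. The lists cover bZIP partners, AP-1 kinases, upstream factors, turnover, AP-1 targets, immediate early genes, heat shock genes, and granulosa, oocyte, theca and stroma, endothelial and immune markers. For each tested AP-1 gene the 3 most correlated genes were computed.

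Depth was 1820545 to 8291024 counts per library, and precision is limited to genes above a few counts. All 31 pairs of libraries of 1 group and batch differed by more than counting noise (chi-square per degree of freedom 11.8 to 84.1), and none was treated as a copy. Alternatives were RLE scaling and library totals, DESeq2 1.42.0, limma-voom (limma 3.58.1), other filters, no batch term, log10 total count as a covariate, Control libraries summed by set, a replicate block, other pseudocounts, and omission of each library in turn.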

Additional observations from a re-analysis of the deposited data

Results flagged for a closer look

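Over 27 groups of AP-1 levels and library totals searched for a library far from the rest of its group, 2 held one, where chance gives about 1.35. Fos in Control 1 was 25.6 CPM, below the other 5 Control libraries of batch 1, which were at 33.9 to 38.9 CPM. Without Control 1 the calls of AP-1 genes in Tyrphostin against Control did not change. The total count of Control 6 was 1820545, below the 3807300 to 4834875 counts of the other 5 Control libraries of batch 1. Control 6 also held the highest Fosl1 level of all 17 libraries, 37.8 CPM from 69 counts, and the Fosl1 call against Tyrphostin held without it.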

How the results depend on the processing

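Jun, Junb and Fosl1 kept their calls in Tyrphostin against Control under the 12 alternatives and the 17 omissions of 1 library, with log2 fold changes of 1.02 to 1.30, -1.91 to -1.33 and -2.74 to -2.17. The 1018 calls over all genes became 619 with batch left out of the model, 678 with depth (log10 of the total) added to it, and 708 to 1314 when 1 library was left out. Labels number replicates, and numbers 4 to 6 join different batches. Residual correlations of same-numbered libraries ran from 0.03 to 0.32, which cannot show whether any of them are pairs. A link between the Control sets and the Tyrphostin libraries was not tested. With a replicate block on libraries 1 to 6 there were 624 calls, and 601 on the same libraries without the block. The replicate block turned Fosl2 to a log2 fold change of -0.070, and Atf3 was at 0.069 on those libraries without it. Neither was called in any fit. Within batch 1 omissions gave 394 (without Tyrphostin 2) to 687 calls, and within batch 2 11 (without Tyrphostin 6) to 221 (without Control 7), with 303 in DESeq2 and 222 without the filter. The interaction gave 79 calls without the filter, none an AP-1 gene, and 0 in every omission. Between Control batches omissions gave 660 (without Control 3) to 1063 calls. Other signs that turned belonged to values near 0 that never passed: Atf3 in batch 1 was -0.038 without Control 5, -0.045 without Control 6 and -0.024 without Tyrphostin 1 (highest 0.298, without Control 1). Fosl2 in batch 1 was -0.095 without Tyrphostin 3 (highest 0.262, without Tyrphostin 1). Fosl2 between Control batches was -0.018, -0.054, -0.033, -0.015 and -0.026 without Control 1, 4, 6, 8 and 11 (highest 0.128, without Control 3). The Jun to Jund ratio was 0.74 with 0.5 CPM added and 0.85 without regard to batch, neither past the threshold, and 0.66 (without Tyrphostin 3) to 0.94 in the omissions. The Fos to Fosb ratio was -0.012 with 5 CPM added. Omissions gave -2.49 to -2.15 for Fosl1 to Fosl2, -1.90 to -1.65 for Junb to Jund and 0.10 to 0.43 for Fos to Fosb. The cause of these changes was not tested. Depth limits Jund and Fosb, which had at most 24 and 21 counts in a library.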

Other observations

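Markers of the cell types in a follicle were read beside the AP-1 genes. Of 8 tested granulosa markers 3 rose in Tyrphostin libraries and none fell, with a median log2 fold change of 0.41. Of all 9603 genes tested, 4.35% rose and 6.25% fell, with a median of 0.00. Nr5a2, a nuclear receptor of granulosa cells, went from 44.7 ± 9.79 CPM (mean ± SD, n = 11) to 202 ± 36.3 CPM (mean ± SD, n = 6), which is a log2 fold change of 2.18 ± 0.16 (SE; adjusted p = 8.38e-09 in edgeR). Lhcgr, the LH receptor, and Fshr, the FSH receptor, rose by log2 fold changes of 1.02 ± 0.24 and 0.83 ± 0.25 (SE; adjusted p = 0.00765 and 0.0344 in edgeR). The number of granulosa markers that rose was 1 without the batch term and with Control libraries summed by set, 2 with depth in the model, on libraries 1 to 6 with or without the replicate block, and without Control 1, 3 or 10 or Tyrphostin 1, 5 or 6, and 4 with library totals and in DESeq2. No marker passed among 7 tested for the oocyte, 10 for theca and stroma, 2 for endothelium and 3 for immune cells in edgeR with batch in the model. In DESeq2 and without Tyrphostin 4, 1 oocyte marker was called higher, and with the replicate block 1 endothelial marker was called lower. The lowest p in those lists were at Zp2, a zona pellucida protein (log2 fold change 1.37 ± 0.49, SE; adjusted p = 0.0908 in edgeR), Cyp17a1, Kdr (-0.67 ± 0.31, SE; adjusted p = 0.183 in edgeR) and Cd14 (-0.57 ± 0.52, SE; adjusted p = 0.566 in edgeR).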
